A study of Homo sapiens with 4 samples.

Results

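Glycolysis is the cytosolic chain of reactions that turns glucose into pyruvate, and the enzymes of its lower part are among the most abundant proteins of proliferating cells. Lactate dehydrogenase A then reduces pyruvate to lactate, a step that cancer cells favour even when oxygen is present. Transcripts of these enzymes are abundant in most cells, and reverse-transcribed copies of them have been scattered over the genome as processed pseudogenes. The 8 genes described here are GAPDH, ENO1, PKM, LDHA, ALDOA, PGK1, TPI1 and PGAM1, out of 19970 protein-coding genes on chromosomes 1 to 22 and X. All peaks with a summit inside the RefSeq bounds of these genes were taken, by position alone, which came to 43 of the 270743 peaks in the 4 deposited lists.

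The peaks come from STARR-seq, an assay in which sheared genomic DNA sits on a plasmid behind a minimal promoter, so that a fragment with enhancer activity is copied into its own reporter RNA. The cells were MDA-MB-231, an established mesenchymal, triple-negative breast cancer line, and the plasmid library was made from the same line's DNA. The groups were SHP1705 at 10 µM, named in the series as a compound that stabilizes the clock repressor CRY, MG132 at 100 nM, a proteasome inhibitor, the combination of SHP1705 at 10 µM with MG132 at 100 nM, and the solvent DMSO, each taken 8 h after transfection. RNA was selected on its poly(A) tail, reverse-transcribed and amplified by a junction PCR meant for reporter transcripts. Each treatment was 1 library, so drug and library cannot be told apart, no test was possible, and intervals below cover counting error only. A peak inside a gene reports fragments that align there, and is not taken here as a measure of that gene's expression. Whether any of these fragments came from the gene's own RNA was not tested.

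The SHP1705 library stood apart from the other 3. It held 118324303 fragments, against 27289266 with MG132, 28331486 with the combination and 29717604 with DMSO, and its lowest called pileup was 0.237 fragments per 1000000 fragments of the library (FPM, the unit of every height below), against 0.440, 0.424 and 0.437. The mesenchymal genes VIM, FN1 and CD44 each held a region with a summit in all 4 lists. CDKN2A, which this line is known to have lost, held 5 summits with SHP1705 and 0 in each of the other lists, and the neighbouring CDKN2B held 3 with SHP1705, 1 with MG132 and 0 with the combination and DMSO. MTAP, from the same locus, held 3, 0 and 1 with SHP1705, MG132 and the combination, and 1 with DMSO. With SHP1705 the tallest peak reached 5.16 FPM in CDKN2A, 27.8 in CDKN2B and 5.44 in MTAP. In the other lists CDKN2B had 0.660 with MG132, and MTAP had 2.47 with the combination and 0.942 with DMSO. The source of the fragments at this locus was not tested. Of the luminal markers ESR1, PGR and CDH1, CDH1 held a region in all 4 lists, and ESR1 and PGR held summits in all 4 lists without a common region. The recurrence of regions is therefore also given without SHP1705.

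In 7 of the 8 genes a peak recurred in all 4 lists in the 3′ part of the gene, and 1 peak of the 43 covered a promoter. Promoter sequences are shown because regulatory elements of these genes would be sought there. Of 12 RefSeq promoter windows (GRCh38.p14, the 250 bases before an annotated start), 1 lay under a peak, that of PKM, in SHP1705 alone. Some windows, those of PKM, GAPDH and PGAM1 among them, lie inside the gene bounds used here and not upstream of them. That peak was 1530 bp wide with a summit pileup of 144 fragments, or 1.22 fragments per 1000000 fragments of the library, and it covered the window shown here, at chr15:72231191-72231440 on the minus strand, with its 3 GC boxes in capitals.
PKM promoter: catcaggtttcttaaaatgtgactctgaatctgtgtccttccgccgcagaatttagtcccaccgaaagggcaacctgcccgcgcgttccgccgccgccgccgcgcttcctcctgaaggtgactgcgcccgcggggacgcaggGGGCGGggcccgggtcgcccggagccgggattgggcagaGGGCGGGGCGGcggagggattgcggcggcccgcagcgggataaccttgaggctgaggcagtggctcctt

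CRY proteins repress the clock factors CLOCK and BMAL1, which bind the E-box CACGTG, and MYC, an activator of glycolytic genes, binds the same letters. The 4 E-boxes in the windows of the 8 genes are given with 12 bases on either side and the motif in capitals, at chr11:18394366-18394395, chr11:18394464-18394493, chr12:6535171-6535200 and chr16:30064373-30064402, all on the plus strand.
LDHA distal E-box: agactcccagcgCACGTGgagcagtctgcc
LDHA proximal E-box: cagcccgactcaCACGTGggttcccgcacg
GAPDH E-box: gctctgcggggtCACGTGtcgcagaggagc
ALDOA E-box: tggcagggaggcCACGTGatccgagtcccc
The E-boxes of GAPDH and ALDOA lie inside the gene bounds used here, and those of LDHA before the gene. None of these E-boxes lay under a peak in any of the 4 lists. CACGTG, which reads the same on both strands, was present in 3 of the 12 windows, from 3 of the 8 genes, and in 6.34% of all 35116 windows. The hypoxia response core ACGTG, searched on both strands and contained in every CACGTG, was present in 7 of the 12 windows, from 5 of the 8 genes, and in 18.5% of all windows. The GC box GGGCGG, searched on both strands, was present in 9 of the 12 windows, from all 8 genes, and in 42.6% of all windows. These shares are per window, and LDHA, TPI1 and ALDOA have multiple windows each. The share of all genes with each motif is not given here, so the gene counts have no background. A match is a string of letters and not a shown binding site.

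All 8 genes held a summit with SHP1705, MG132 and DMSO, and 7 did in the combination, where ENO1 had none. The share of all protein-coding genes with a summit was 75.9% with SHP1705, 51.6% with MG132, 45.7% with the combination and 42.1% with DMSO, so presence in SHP1705 alone says little of these genes. With each list kept to the same number of strongest peaks, 3 of the 8 genes held a summit with MG132. The counts were 8 with SHP1705, 6 with the combination and 8 with DMSO. The share of all protein-coding genes at that setting is not given here, so these counts have no background. Summits in all 4 lists, at any position, were found in 7 of the 8 genes and in 24.8% of all protein-coding genes. A region with a summit inside the gene in all 4 lists was found in 7 of the 8 genes, all except ENO1, and in 5.60% of all protein-coding genes. Without SHP1705, regions common to the other 3 lists were again found in 7 of the 8 genes, but with lists of equal length common regions were found in 3. The shares of all protein-coding genes under these settings are not given here, so both counts have no background. The 43 summits fell into 18 regions, of which 8 were in all 4 lists, 1 with SHP1705 and DMSO, 7 with SHP1705 only, 1 with MG132 only and 1 with the combination only. Over chromosomes 1 to 22 and X, 4584 of 223513 merged regions were in all 4 lists. The share of single-list regions over all regions is not given here, and SHP1705 had the longest list, with 88588 peaks.

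GAPDH, which oxidises glyceraldehyde phosphate and is often used as a reference transcript, had the tallest gene-end peak of the 8 genes in every list. The gene lies at chr12:6534517-6538371 on the plus strand (hg38, 3855 bp). Its single peak had 537 FPM with SHP1705, 22.2 with MG132, 18.3 with the combination and 21.3 with DMSO, from pileups of 63544, 606, 518 and 632 fragments. SHP1705 was thus 25.3 times DMSO (95% counting interval 23.3 to 27.4), and the other 3 libraries lay close together. In SHP1705 the peak ran over chr12:6537579-6538329 (hg38), 751 bp wide, and the 4 summits lay within 65 bp of each other. Start positions of the 4 peaks differed by 6 bp and end positions by 29 bp. The SHP1705 summit was 500 bp before the annotated 3′ end of the gene.

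PKM encodes the muscle-type pyruvate kinase, which makes pyruvate in the last step of glycolysis and is spliced into the M1 and M2 forms, from chr15:72199029-72231591 on the minus strand. Its gene-end peak reached 204 FPM with SHP1705, 5.83 with MG132, 4.69 with the combination and 5.72 with DMSO. SHP1705 was 35.6 times DMSO (30.6 to 41.7), an interval that lies above that of GAPDH. The peak, at chr15:72199047-72199766 with SHP1705, had its summit 433 bp from the 3′ end, and the summits of the 4 lists lay within 172 bp. LDHA, at chr11:18394563-18408425 on the plus strand, reached 160 FPM with SHP1705, 6.05 with MG132, 4.41 with the combination and 6.16 with DMSO at its gene end, a SHP1705 ratio to DMSO of 26.1 (22.5 to 30.3). Its 4 summits lay within 93 bp, 912 to 1005 bp from the 3′ end. LDHA and PKM were next to each other in height in all 4 libraries, with PKM the taller in SHP1705 and the combination and LDHA in MG132 and DMSO. Their counting intervals overlapped in MG132, the combination and DMSO, and did not in SHP1705.

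The gene-end peak of PGAM1, a phosphoglycerate mutase at chr10:97426191-97433444 (plus strand), had 96.9 FPM with SHP1705, 3.44 with MG132, 3.07 with the combination and 3.47 with DMSO. In MG132 the summit was 346 bp away from those of SHP1705 and DMSO, within the same region. ALDOA, the aldolase that splits fructose bisphosphate, at chr16:30064279-30070420 (plus strand), had 80.8 FPM with SHP1705, 3.08 with MG132, 2.40 with the combination and 2.79 with DMSO at its end, with all 4 summits within 12 bp. The summits of ALDOA also lie inside LOC112694756, an overlapping protein-coding locus, and fragments cannot be divided between the loci. TPI1, the triose phosphate isomerase at chr12:6867420-6870948 (plus strand), had 76.8 FPM with SHP1705, 2.53 with MG132, 1.98 with the combination and 2.93 with DMSO, and its DMSO summit was 167 bp away from that of SHP1705. PGK1, a kinase that makes ATP in the pathway's payoff phase, at chrX:78104248-78129295 (plus strand), had 67.9, 2.35 and 1.94 FPM with SHP1705, MG132 and the combination, and 2.36 with DMSO. Its 4 summits lay within 7 bp, but 3330 bp before the annotated 3′ end in SHP1705, the farthest of these regions. In each of these 4 genes SHP1705 was high and the other 3 libraries were low and near each other.

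ENO1, the enolase upstream of pyruvate kinase, at chr1:8861000-8878686 on the minus strand, was the exception to recurrence. Its gene-end peak was called in SHP1705 with 72.5 FPM and in DMSO with 4.14 FPM, with summits 227 and 225 bp from the 3′ end. MG132 had a peak elsewhere in ENO1, of 2.97 FPM and 3735 bp from the 3′ end, and the combination had none. A list gives no value where no peak was called, so the height there in MG132 and the combination is not known.

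**Figure D1:**
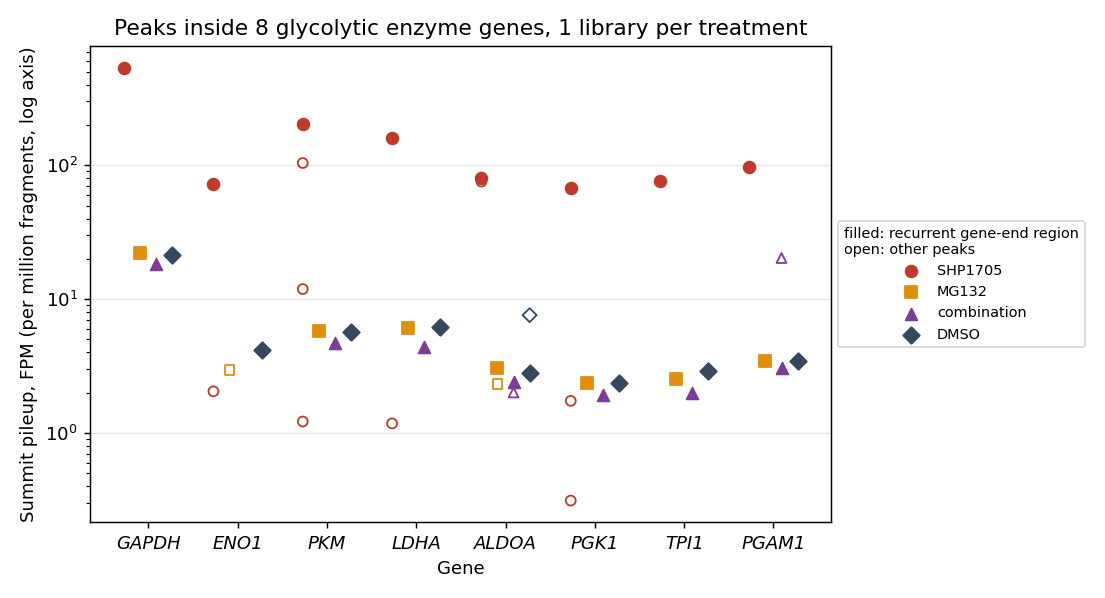
Summit pileup in FPM (log axis) of every peak inside the 8 genes, by gene and treatment, with 1 library per treatment. Filled marks are gene-end regions held by at least 2 lists, which for ENO1 are SHP1705 and DMSO only, and open marks are all other peaks. The filled SHP1705 marks lie between 67.9 and 537, and those of MG132, the combination and DMSO between 1.94 and 22.2.

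The order of heights among the 7 genes with a common gene-end region was nearly the same in each library. GAPDH was highest and PGK1 lowest in all 4, and the highest was 7.90 times the lowest in SHP1705, 9.47 times in MG132, 9.42 times in the combination and 9.03 times in DMSO. Spearman's rho across these 7 genes was 1 between SHP1705 and the combination, 0.96 between SHP1705 and MG132 and 0.93 between SHP1705 and DMSO, as a description over genes that share the same libraries. In SHP1705 the order was GAPDH, PKM, LDHA, PGAM1, ALDOA, TPI1 and PGK1, and no counting interval overlapped that of the next gene. In DMSO the intervals of LDHA and PKM overlapped, as did those of each neighbouring pair among PGAM1, TPI1, ALDOA and PGK1. Intervals overlapped likewise in MG132, and in the combination those of every neighbouring pair below GAPDH did. Summit pileup is a depth at a single base and not a sum over the gene, and its relation to gene length was not tested.

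SHP1705 was set against DMSO to ask which fragments respond to CRY stabilization. At the 7 common gene-end regions the ratio of pileup in FPM ran from 25.3 in GAPDH to 35.6 in PKM, with a median of 27.9. Taking the tallest peak anywhere in the gene, 8 of 8 genes were more than 2-fold higher in SHP1705, where 24.4% of the 7630 protein-coding genes with a summit in both lists were, and 52.1% were more than 2-fold lower. The size of the ratio depends on the scaling: the median over tallest peaks was 26.1 in FPM, and 83.1 when each library was scaled by its median over regions in all 4 lists. The gene-end ratios lay within the range of other genes with a recurrent peak at their 3′ end. Among 398 other such regions, within 1000 bp of the 3′ end of a protein-coding gene and thus nearer to it than that of PGK1, the median ratio was 30.9, the middle 50% ran from 24.2 to 38.4, 99.5% were more than 2-fold higher and 0.251% more than 2-fold lower. The 4178 remaining regions held by all 4 lists had a median ratio of 0.135, with 24.7% more than 2-fold higher and 73.0% more than 2-fold lower.

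MG132 was set against DMSO for proteasome inhibition. The 7 gene-end ratios ran from 0.864 in TPI1 to 1.10 in ALDOA, with a median of 0.996, and all 7 counting intervals included 1. For GAPDH, the most deeply covered, the ratio was 1.04 with an interval of 0.933 to 1.17. No gene was more than 2-fold higher in MG132 by its tallest peak, against 13.1% of the 6431 genes with a summit in both lists. ALDOA alone was more than 2-fold lower, at 0.405, which rests on its internal DMSO peak, and 27.2% of all genes were. Other gene-end regions had a median ratio of 1.09 and quartiles of 0.935 and 1.25, with 5.53% more than 2-fold higher and 4.02% more than 2-fold lower. The share of them with a counting interval that included 1 is not given here.

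The combination was set against DMSO and against each drug alone. Against DMSO the ratio was below 1 in 7 of 7 genes, from 0.675 in TPI1 to 0.886 in PGAM1, with a median of 0.824. The counting interval excluded 1 for GAPDH (0.764 to 0.967), LDHA (0.566 to 0.904) and TPI1 (0.474 to 0.955), and included it for the other 4. The 398 other gene-end regions had a median of 0.891 and quartiles of 0.786 and 1.05, so most of them were also below 1. Of these regions 4.27% were more than 2-fold higher and 4.52% more than 2-fold lower. The share of them with a counting interval that excluded 1 is not given here, so the interval count of the 7 genes has no background. By its tallest peak ALDOA was at 0.316, the only 1 of the 7 genes more than 2-fold lower, and 19.9% of all genes were. Against MG132 the 7 ratios ran from 0.730 to 0.891, and of other gene-end regions 4.27% were more than 2-fold higher and 6.78% more than 2-fold lower. Against SHP1705, which was present at the same dose in both libraries, the ratios ran from 0.0230 in PKM to 0.0340 in GAPDH, and 98.7% of other gene-end regions were more than 2-fold lower. At these genes the height in the combination was thus near that in DMSO and far from that in SHP1705. The 3 comparisons with DMSO share that library, and those of the combination share the combination.

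**Figure D2:**
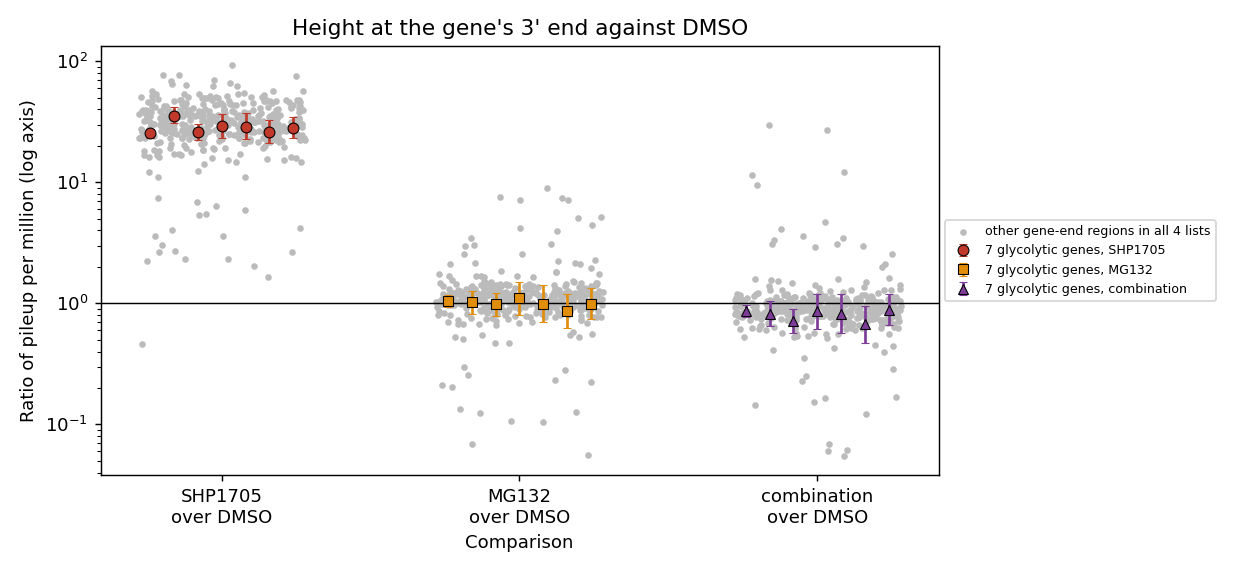
Ratio of summit pileup in FPM to DMSO (log axis) at the 7 gene-end regions found in all 4 lists (coloured, with 95% counting intervals) and at 398 other gene-end regions (grey, 1 point per region). The coloured points lie at 25.3 to 35.6 for SHP1705, 0.864 to 1.10 for MG132 and 0.675 to 0.886 for the combination, inside the grey clouds.

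Along the genes, 7 of 16 summits lay within 1000 bp of the 3′ end in SHP1705 (43.8%, Wilson 95% interval 23.1 to 66.8), and 6 of 9 did in each of MG132, the combination and DMSO (66.7%, 35.4 to 87.9). For all protein-coding genes of known strand these shares were 12.6% with SHP1705, 4.65% with MG132, 4.57% with the combination and 5.54% with DMSO. These shares were not matched for gene length, and 1000 bp is a large part of short genes such as TPI1 (3529 bp) and GAPDH (3855 bp). Within 1000 bp of the 5′ end lay 1 of 16 summits with SHP1705, the PKM promoter peak, and 0 of 9 in each other list. Over all genes 7.79% of SHP1705 summits lay there, against 1.83% with MG132, 1.89% with the combination and 2.15% with DMSO. Counted by genes, 33.3% of all those of known strand held a summit within 1000 bp of the 3′ end in SHP1705, 6.81% with MG132, 5.29% with the combination and 5.27% with DMSO, and 20.5%, 2.68% and 2.19%, and 2.04% with DMSO, held one within 1000 bp of the 5′ end. A common region at the 3′ end was held by 2.62% of them, and by 6 of the 8 genes. The last 10% of gene length held 25.3% of SHP1705 summits over all genes, 13.4% with MG132, 13.8% with the combination and 14.7% with DMSO.

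**Figure D3:**
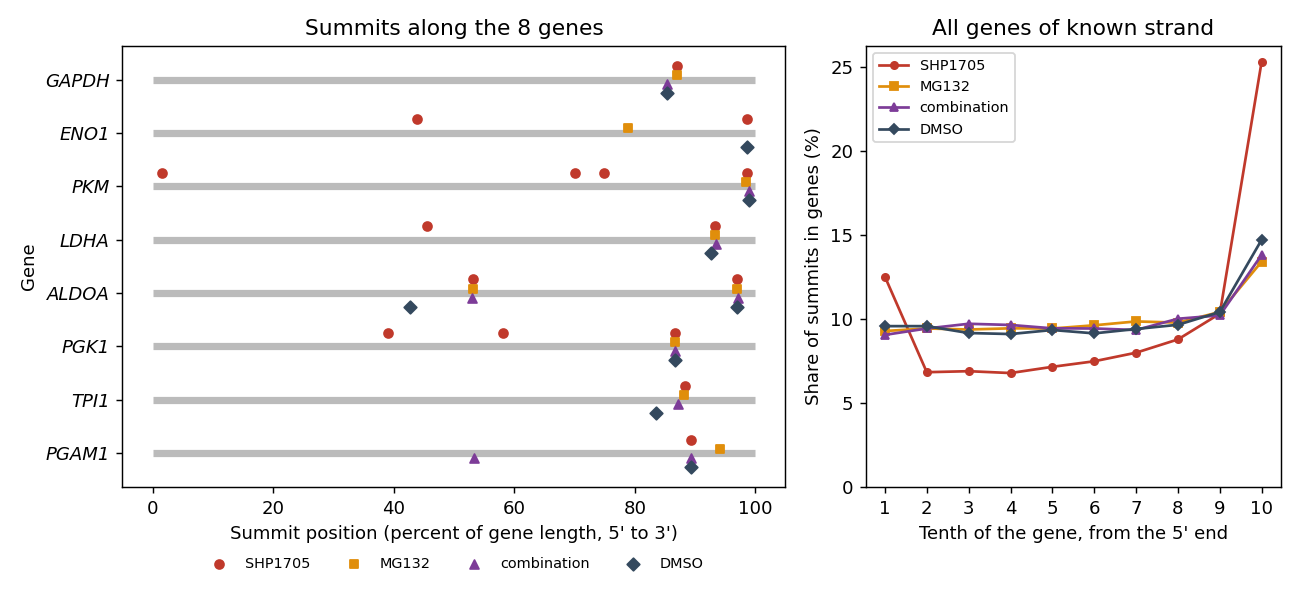
Left, position of each summit along the 8 genes as a percent of gene length from the 5′ end, by treatment. Right, share of summits in each 10% of gene length over all protein-coding genes of known strand, which reaches 25.3% at the 3′ end in SHP1705 and 13.4% to 14.7% in the other lists.

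Peak widths were similar across lists at the gene ends of GAPDH, PKM, LDHA and ALDOA, and differed more at those of PGK1, TPI1 and PGAM1. The GAPDH peak was 751 bp wide in SHP1705, 734 bp with MG132, 747 bp with the combination and 716 bp with DMSO. That of PGK1 was 895 bp with SHP1705 and 456, 451 and 456 bp with MG132, the combination and DMSO. In the same order of lists, the PGAM1 peak was 1036, 792, 654 and 946 bp wide, and the TPI1 peak 547, 491, 465 and 636 bp. The 43 peaks ranged from 300 bp to 1530 bp. The narrowest, a PKM peak with 104 FPM at chr15:72208605-72208904, was found in SHP1705 only. The other lists hold no peak under 346 bp, their minimum width being the fragment size of 346 to 355 bp.

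Inside the genes, away from the ends, 1 more region recurred in all lists, in the middle of ALDOA. It had 75.6 FPM with SHP1705, 2.31 with MG132, 2.01 with the combination and 7.60 with DMSO. The DMSO peak there was 926 bp wide and its summit lay 644 bp from that of SHP1705, while the SHP1705, MG132 and combination peaks were 466, 441 and 434 bp wide. The ratio of SHP1705 to DMSO was 9.94 at this region and 28.9 at the ALDOA end. The other internal peaks were each in 1 list. The tallest outside SHP1705 was in PGAM1 with the combination, at chr10:97429847-97430268, with 20.3 FPM, which is 5.85 times the tallest DMSO peak of that gene and the only value over 2-fold for the combination among the 7 genes compared. The share of such genes over all genes was 16.2%. Lower SHP1705 peaks were found in PKM (11.9 FPM), LDHA (1.18 FPM), ENO1 (2.05 FPM) and PGK1 (1.74 and 0.313 FPM).

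Some pseudogene copies of the 8 genes carried peaks taller than those of the genes themselves. RefSeq lists 99 pseudogenes named as copies of the 8 genes on these chromosomes, and 37 held a summit with SHP1705, 15 with MG132, 13 with the combination and 17 with DMSO. Of all 16458 annotated pseudogenes, 22.9% did in SHP1705, 9.72% with MG132, 8.45% with the combination and 8.40% with DMSO. A region with a summit in all 4 lists was found in 11 of the 99 copies, and in 3.13% of all pseudogenes. They were copies of PKM (3 of 5), LDHA (2 of 6), PGK1 (2 of 2), ALDOA (1 of 2), ENO1 (1 of 4), TPI1 (1 of 4) and GAPDH (1 of 63), and none of the 13 copies of PGAM1. The low share for GAPDH, whose copies are by far the most numerous, was accompanied by 47 copies with no summit in any list.

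PKMP1 was the tallest copy in SHP1705 with 293 FPM, followed by ENO1P1 with 252, GAPDHP65 with 191, TPI1P1 with 190 and PKMP4 with 161. PKMP1 was 1.44 times the PKM gene end in SHP1705, 1.49 times in MG132, 1.44 times in the combination and 2.76 times in DMSO. ENO1P1 was in all 4 lists, with 252 FPM with SHP1705, 8.87 with MG132, 8.22 with the combination and 9.32 with DMSO, although the ENO1 gene end was called in SHP1705 and DMSO only. It was 3.48 times the ENO1 gene end in SHP1705 and 2.25 times in DMSO. GAPDHP65 was lower than its parent, at 0.355 of the GAPDH peak in SHP1705, 0.403 with MG132, 0.375 with the combination and 0.378 with DMSO. TPI1P1 was 2.48 times the TPI1 gene end in SHP1705, 2.39 times in MG132, 2.46 times in the combination and 8.62 times in DMSO.

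In MG132 the tallest copies were GAPDHP65 with 8.94 FPM, ENO1P1, PKMP1 with 8.68, GAPDHP76 with 6.67 and TPI1P1 with 6.05. In the combination they were PGAM1P5 with 9.04, ENO1P1, GAPDHP65 with 6.85, PKMP1 with 6.78 and TPI1P1 with 4.87. In DMSO they were TPI1P1 with 25.2, LDHAP1 with 22.8, PGAM1P5 with 22, GAPDHP43 with 21.8 and GAPDHP72 with 16.3. Over the 11 recurrent copies SHP1705 was 7.55 to 44.1 times DMSO with a median of 34.6, MG132 had a median ratio of 1.06 and the combination of 0.882. At the 7 gene ends the medians were 27.9, 0.996 and 0.824. How the aligner placed reads that match both a gene and its copies is not given in the sources used here, so heights at genes and copies are uncertain by the reads they may share.

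**Figure D4:**
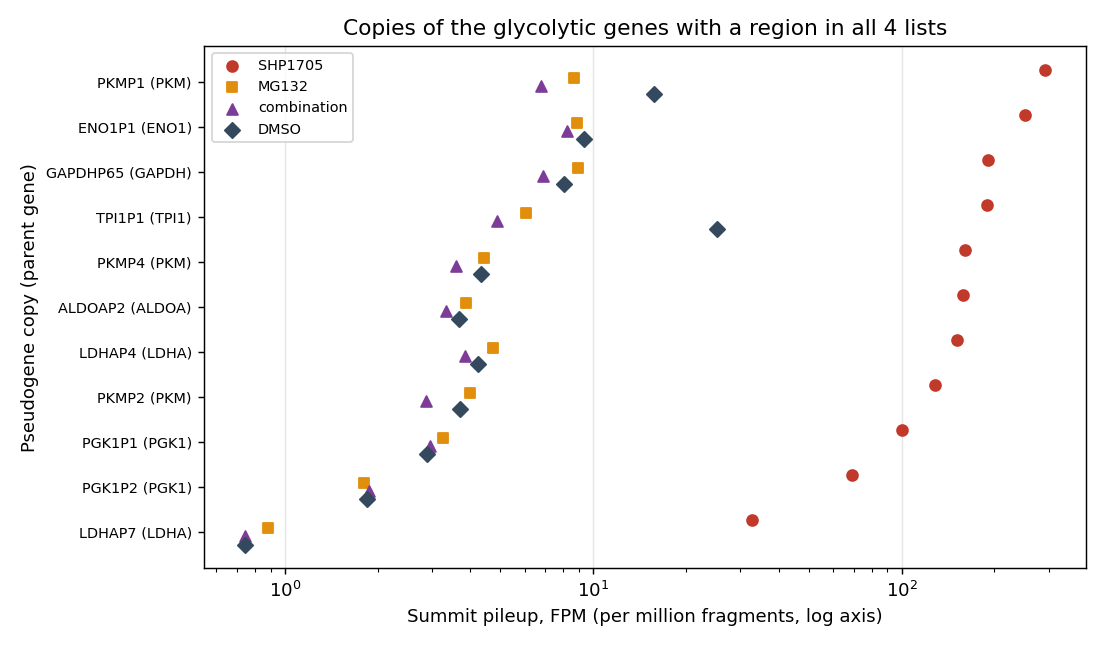
Summit pileup in FPM (log axis) at the 11 pseudogene copies with a region in all 4 lists, by treatment, with the parent gene in parentheses. SHP1705 lies between 32.7 and 293; the DMSO marks of PKMP1 and TPI1P1, at 15.8 and 25.2, stand to the right of MG132 and the combination.

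Isozymes and other enzymes of the pathway were counted in the same way. Of 21 other pathway enzymes, a summit was found in 14 with SHP1705, 11 with MG132, 6 with the combination and 8 with DMSO, and 1 held a region common to all 4 lists. Over all protein-coding genes the shares were 75.9%, 51.6%, 45.7% and 42.1% with a summit and 5.60% with a common region, so 1 of 21 is near the background. That gene was GPI, the isomerase acting after hexokinase, with 32.1 FPM with SHP1705, 1.58 with MG132, 9.11 with the combination and 1.45 with DMSO. GAPDHS and PGK2, the testis forms, PGAM2, the muscle mutase, HK3 and LDHD held no summit in any list. LDHB, the heart-type lactate dehydrogenase, had 24.2 FPM with SHP1705 and no peak elsewhere, and ENO2, the neuronal enolase, had 7.20 with SHP1705 alone. PGAM4, an intronless relative of PGAM1, had 0.854 with SHP1705 alone. LDHC, the testis form, had 8.61 and ENO3, the muscle enolase, 2.31 FPM with MG132 alone. PKLR, the liver and red cell pyruvate kinase, had 1.17 FPM with SHP1705 and 1.76 with MG132. ALDOC, the brain aldolase, had 4.79 with SHP1705 and 4.78 with DMSO.

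HK1, PFKP and BPGM held summits in all 4 lists without a common region. HK1, a hexokinase that traps glucose in the cell, reached 33.8 FPM with SHP1705, 6.96 with MG132, 9.81 with the combination and 0.909 with DMSO. PFKP, a phosphofructokinase, reached 4.46, 1.03 and 8.37 with SHP1705, MG132 and the combination, and 12.3 with DMSO. BPGM, the mutase that makes bisphosphoglycerate in red cells, reached 4.76, 2.71 and 3.99, and 3.13 with DMSO.

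Of 10 genes of transport and regulation, 3 held a common region, against 5.60% of all protein-coding genes. These were the glucose carrier SLC2A1 with 17.5 FPM with SHP1705, 0.916 with MG132, 3.81 with the combination and 0.740 with DMSO, the lactate carrier SLC16A1 with 12.1, 0.733, 1.31 and 1.18, and HIF1A, the hypoxia factor that induces glycolytic genes, with 44.5, 1.28, 0.741 and 1.18. PFKFB3, PFKFB4 and PDK1 held summits in all 4 lists with no common region. PDK1, the kinase that closes the entry of pyruvate into the citrate cycle, reached 1.40 FPM with SHP1705, 10.0 with MG132, 12.7 with the combination and 26.1 with DMSO. PFKFB3 reached 10.9, 9.49 and 19.3 with SHP1705, MG132 and the combination and 13 with DMSO, and PFKFB4 reached 2.40, 7.73 and 7.13, and 6.83 with DMSO. Of 12 enzymes of pyruvate dehydrogenase and the citrate cycle, all 12 had a summit with SHP1705, 9 with MG132, 7 with the combination and 5 with DMSO, and 0 held a common region. The shares over all genes were 75.9%, 51.6%, 45.7% and 42.1% with a summit and 5.60% with a common region, so the DMSO count and the absence of a common region are near the background. OGDH, SDHA and PC held summits in all 4 lists. OGDH reached 24.1 FPM with SHP1705, 17.8 with MG132, 23.9 with the combination and 8.24 with DMSO, SDHA 7.77, 11.5, 8.29 and 3.30, and PC 3.19, 4.03, 18.5 and 15.4.

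The genes whose profile of tallest peaks over the 4 libraries was nearest to the median of the 8 were HNRNPA0, RPL8, HNRNPA1L2, CALM2 and UQCRHL, by Euclidean distance of log2 pileup in FPM. The median was taken on the log2 scale, with ENO1 in the combination, where no peak was called, set at that list's lowest called pileup of 0.424 FPM. The median profile so made was 88.5 FPM with SHP1705, 3.26 with MG132, 3.25 with the combination and 4.87 with DMSO. HNRNPA0, an RNA-binding protein gene, was at a distance of 0.15 with 89.9, 3.30, 3.04 and 4.51 FPM, and UQCRHL was at 0.58. All 5 held a region common to the 4 lists. Among the 398 other gene-end regions, 3 were taller than GAPDH in SHP1705, 2 with MG132, 2 with the combination and 1 with DMSO, and even PGK1, the lowest of the 7 genes, stood above the median of those regions in each library.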

How the data were processed

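Reporter RNA of MDA-MB-231 cells was sequenced in 4 libraries, 1 per treatment. Trimmomatic, FastQC, Bowtie2 and MACS2 are named with hg38 per the submitters' processing notes. Each library had its own peak calls from MACS 2.2.6, with q up to 0.01, per the file headers. Those headers also name a local background of 10000 bp, no control and all duplicates kept. The pileup signal is the number of fragments over the summit, deposited by the authors unscaled. The −log10 p-value and q-value and the fold, a ratio to local background, are also as deposited by the authors and were used only to rank or filter peaks within a list. Peak width in bp and total fragments are given per the file headers and columns.

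Pileups were divided by the fragments of the library and multiplied by 1000000 (FPM). Genes came from RefSeq GRCh38.p14, whose primary chromosomes have hg38 coordinates. Strand came from the promoter table and was known for 15812 of 19970 genes. Exons and UTRs were not used here. Peaks sharing at least 1 bp were merged into regions. Ratio intervals are exact conditional binomial intervals (95%) of 2 pileups, single heights have exact Poisson intervals and shares have Wilson intervals. None covers more than counting error, and duplicate fragments were counted as separate. With 1 library per group nothing was tested. Peak assignment and merging were tested on simulated data. Members and lists were chosen with earlier results of these data known. Text names all 8 genes, their isozymes, pathway genes with a summit in all 4 lists, the 5 tallest copies per list and the 5 nearest profiles, except 2 pathway genes that are not reported here. Python 3.11.15, pandas 2.3.3 and scipy 1.17.1 were used.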

Additional observations from a re-analysis of the deposited data

How the results depend on the processing

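Counts of the 8 genes and their copies with a peak, shares near gene ends and ratios to DMSO were recomputed under 68 combinations of result and setting, and 61 stayed within 1.5 times or within their interval. With every list kept to its 49863 strongest peaks, the genes with a peak in MG132 numbered 3 in place of 8, the copies 8 in place of 15, and the genes with a region in all 4 lists 3 in place of 7. Fewer peaks tested is the construction of that setting, and the shares of all genes and all pseudogenes under it are not given here. Within 500 bp of an end lay 33.3% of summits in the combination and in DMSO, in place of 66.7%. The median ratio of tallest pileups, SHP1705 over DMSO, was 26.1 in FPM, 104 with raw pileup and 83.1 when scaled by the median of regions in all 4 lists. The MG132 over DMSO ratio crossed 1 under both of those scalings, at 0.959 in place of 1.04 for GAPDH and 0.935 in place of 1.02 for PKM, and no other single-gene ratio crossed 1. In all, 16 of 92 single-gene values, all for SHP1705 under those scalings, left their counting interval. Common regions were found in 7 genes without SHP1705, with peaks at −log10 q of at least 5, and with peaks at least 355 bp wide. The shares of all genes under these settings are not given here either. The alternatives for common regions were chosen after seeing the data. No paired analysis was possible because each treatment has 1 library. The low pileups at gene ends outside SHP1705, 55 to 632 fragments, limit the precision of those ratios.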

Other observations

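Among MG132, the combination and DMSO, some copies were tallest in DMSO. GAPDHP43 had a peak of 647 fragments in DMSO, or 21.8 FPM, close to the 21.3 FPM of GAPDH itself, and no peak in SHP1705, MG132 or the combination. LDHAP1 had 0.972 FPM with SHP1705 and 22.8 with DMSO, with no peak in MG132 or the combination. TPI1P1 had 190 FPM with SHP1705, 6.05 with MG132, 4.87 with the combination and 25.2 with DMSO, and its DMSO summit lay 455 bp from that of SHP1705. PKMP1 had 293 FPM with SHP1705, 8.68 with MG132, 6.78 with the combination and 15.8 with DMSO, with summits of all 4 lists within 6 bp. The share of all pseudogenes with DMSO peaks this tall is not given here. Such heights were not limited to copies, as PDK1 reached 26.1 FPM in DMSO without a common region.

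PGAM1P5 is annotated over 24745 bp, much longer than a processed copy of the PGAM1 transcript, and its summits need not lie on the copied sequence. It had 4.97 FPM with SHP1705, 9.04 with the combination and 22 with DMSO.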
